A study of Mus musculus with 8 samples.

Results

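The strong A bins are the 100-kb autosomal bins of the mouse genome (mm10) whose compartment score was at least 0.03 in every one of 8 Hi-C libraries. There were 3059 such bins among the 23972 bins scored in all 8 libraries, which is 12.8% of the bins and 305.9 Mb. They made up 32.8% of the 9333 bins above 0 in all 8 libraries. The other 6274 of those are called other A bins here, and 11512 bins were below 0 in all 8. The scores themselves chose the bins, so their high level is a description and was not tested, and the same holds for any difference in score between strong A bins and the rest.

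Hi-C counts how often pairs of loci lie close together in fixed nuclei. A compartment score is the first eigenvector of the contact map of a chromosome, and it has no physical unit. Positive scores mark the A compartment and negative scores the B compartment. All libraries came from mouse embryonic stem cells (mESCs), in 8 groups of 1 library each. The Setdb1 groups share a conditional knockout line, #33-6, in which 4-hydroxytamoxifen (4-OHT) removes SETDB1. They were untreated (Setdb1 WT), given UNC0642 at 2 µM for 3 days (Setdb1 WT + UNC), given 4-OHT at 800 nM for 5 days (Setdb1 KO), or given 4-OHT at 800 nM for 2 days followed by UNC0642 at 2 µM for 3 days (Setdb1 KO + UNC). UNC0642 inhibits G9a and GLP, the enzymes that place most H3K9me2. The Suv39h groups were the clone ADF1-26 without (Suv39h WT) and with UNC0642 (Suv39h WT + UNC), and the clone ADF157, which lacks both Suv39h1 and Suv39h2, without (Suv39h DKO) and with the same UNC0642 treatment (Suv39h DKO + UNC). Genotype and clone cannot be told apart in the Suv39h groups, and no untreated library received 4-OHT as a control. The files hold no expression values or read counts, so neither the cell type nor the loss of the targeted genes could be checked from them. The read totals given in the study were not used here.

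The A compartment gathers open, early-replicating and transcribed chromatin toward the nuclear interior, and it is rich in genes and in G and C bases. The B compartment gathers gene-poor heterochromatin, much of it at the nuclear lamina. H3K9me2 covers large parts of B. The study asked whether loss of H3K9 methylation alters this arrangement, and the strong A bins are the bins that kept a high score in every condition. Bins that a condition took below 0.03 are not among them.

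The 2 bins with the highest mean score that hold a protein-coding gene start, and the 2 with the lowest, show the contrast in base composition between the ends of the scale. The 250 bases ahead of the first gene start in each bin are printed 5′ to 3′ on the strand of the gene, from RefSeq on GRCm38.p6, with each CG in capitals. CG pairs were searched as the letters CG, which read the same on both strands. Arhgap19 (chr19:41802085-41802334, minus strand) had 12 CG. Pgam1 (chr19:41911621-41911870, plus strand), an enzyme of glycolysis, had 22. Amy2a3 (chr3:113324053-113324302, minus strand), a pancreatic amylase in a bin with a mean score of -0.0995, had 3. Vmn2r20 (chr6:123418062-123418311, minus strand), a vomeronasal receptor in a bin at -0.0863, had 4.
Arhgap19 (strong A): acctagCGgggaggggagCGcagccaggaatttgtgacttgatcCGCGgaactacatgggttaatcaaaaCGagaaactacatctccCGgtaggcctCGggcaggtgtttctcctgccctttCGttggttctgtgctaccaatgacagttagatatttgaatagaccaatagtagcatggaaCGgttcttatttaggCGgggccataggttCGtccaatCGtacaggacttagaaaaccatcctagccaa
Pgam1 (strong A): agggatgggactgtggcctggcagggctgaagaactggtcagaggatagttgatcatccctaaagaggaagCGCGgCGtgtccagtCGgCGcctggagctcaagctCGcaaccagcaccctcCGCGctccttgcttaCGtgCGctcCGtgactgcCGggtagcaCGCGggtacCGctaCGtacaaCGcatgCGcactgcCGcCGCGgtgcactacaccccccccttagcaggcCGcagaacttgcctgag
Amy2a3 (lowest score): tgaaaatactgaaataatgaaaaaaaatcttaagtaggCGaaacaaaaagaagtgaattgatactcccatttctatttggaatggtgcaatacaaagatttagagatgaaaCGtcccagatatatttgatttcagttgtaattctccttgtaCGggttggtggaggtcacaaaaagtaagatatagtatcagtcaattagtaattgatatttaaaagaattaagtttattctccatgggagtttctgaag
Vmn2r20 (lowest score): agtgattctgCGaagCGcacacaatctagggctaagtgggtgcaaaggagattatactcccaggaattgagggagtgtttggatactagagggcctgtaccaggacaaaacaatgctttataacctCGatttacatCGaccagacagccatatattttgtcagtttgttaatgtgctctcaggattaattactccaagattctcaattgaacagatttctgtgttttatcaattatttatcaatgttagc

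Over all genes with a RefSeq promoter that matched by symbol, the 5567 promoters whose genes start in strong A bins held a median of 14 CG in these 250 bases. The median was 13 in the 5559 promoters of other A bins, 2 in the 3211 of bins below 0, and 11 in all 15631. At least 10 CG were found in 67.1% of the strong A promoters, in 59.6% of those in other A bins, in 19.9% of those in bins below 0 and in 52.6% of all. Most of this contrast thus lay between A and B rather than within A. GATC, the site cut by the DpnII enzyme used for Hi-C, was present in 39.8% of strong A promoters and in 40.1% of all.

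The strong A bins held more genes than the rest of the A compartment. They overlapped a mean of 3.08 protein-coding genes each, with a median of 3, against a mean of 1.72 in other A bins, 0.660 in bins below 0 and 1.29 in all bins. On all 19 autosomes the mean was higher in strong A than in other A bins. It ran from 1.95 genes per strong A bin on chromosome 13 to 4.77 on chromosome 7. A protein-coding gene overlapped 96.4% of the strong A bins and 86.0% of other A bins, and 109 strong A bins held none. The bins are not independent of their neighbours, so no test over bins was made. With 12.8% of the bins, the strong A class held 7399 of the 20713 protein-coding gene starts (35.7%), and other A bins held 35.2%.

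Other gene classes were less concentrated there. Strong A bins held 24.6% of lncRNA starts, 642 of 2053 miRNA gene starts (31.3%), 20.5% of snoRNA starts and 11.7% of pseudogene starts. The pseudogene share is below the 12.8% share of bins. Median GC content was 46.9% in strong A bins, 44.4% in other A bins, 38.8% in bins below 0 and 41.4% in all bins, and strong A was above other A on all 19 autosomes. CG pairs numbered 13.0 per kb at the median in strong A bins and 10.7 per kb in other A bins. Repeats marked in the reference covered 27.9% of the median strong A bin and 27.2% of the median other A bin, and the strong A mean was the lower one on only 8 of 19 autosomes. GATC sites were nearly even, at 2.43 per kb in strong A bins and 2.47 per kb in all bins. Within strong A, 4 groups of nearly equal size, ordered from the lowest to the highest mean score, held 2.81, 2.81, 3.04 and 3.67 genes per bin.

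Every autosome held strong A bins, and the shares were uneven. The lowest was 7.57% of scored bins, 115 bins, on chromosome 4, and the highest was 24.4%, 142 bins, on chromosome 19. Part of this follows from the scale of the scores. An eigenvector has nearly the same total length on a long and a short chromosome, so single scores are smaller on long ones: in Setdb1 WT, 0.03 was 1.37 times the root mean square score of chromosome 2 and 0.740 times that of chromosome 19. With every autosome set to the same root mean square, 3279 bins met the minimum and the shares ran from 10.4% on chromosome 13 to 17.8% on chromosome 19. The 2 sets shared 2837 bins, which is 92.7% of the bins on the deposited scale and 86.5% of those on the equal scale.

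**Figure D1:**
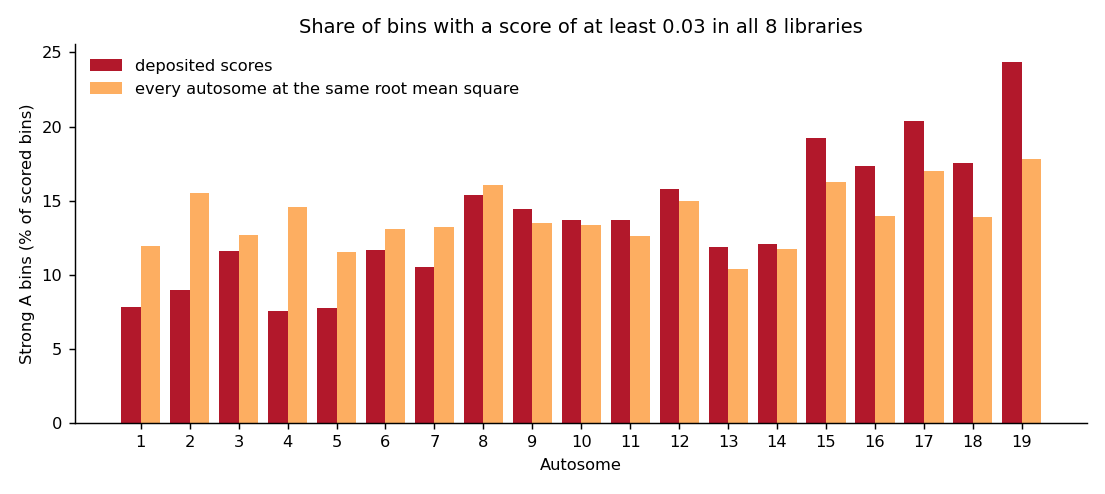
Percent of scored 100-kb bins on each autosome that had a score of at least 0.03 in all 8 libraries, for the deposited scores and for scores with every autosome at the same root mean square. On deposited scores chromosome 19 (24.4%) and chromosome 17 (20.3%) lead, and on the equal scale the range narrows to between 10.4% and 17.8%.

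A smaller share of strong A bins than of all bins lay near the centromeric ends of the chromosomes. The first 10 Mb of the scored part of each autosome, next to the centromere in mouse, held 4.58% of them, 140 bins, against 8.32% of other A bins and 7.88% of all bins. At the other end the share was near that of all bins: the last 5 Mb held 109 strong A bins (3.56%), 7.14% of other A bins and 3.96% of all bins.

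Adjacent strong A bins formed 746 runs, between 25 and 52 on each autosome. The median run was 2 bins, the mean was 4.10 and the longest was 34. Single bins made up 272 runs (36.5%) but only 8.89% of strong A bins. The 82 runs of 10 or more bins held 1251 bins (40.9%). Longer runs had higher scores and more genes. Run length and score both come from the scores that chose the bins, so the rise in score is a description. Runs were made on the deposited scale only, where scores are larger on short chromosomes. The median score of their bins was 0.0377 in single-bin runs, 0.0403 in runs of 2 to 4, 0.0426 in runs of 5 to 9 and 0.0483 in runs of 10 or more. Genes per bin were 2.70, 2.77, 2.98 and 3.41 in the same order, and median GC was 45.6%, 46.2%, 46.6% and 47.7%. Bins without a protein-coding gene were nonetheless more frequent in long runs, at 4.08% of bins in runs of 10 or more and 1.47% of single-bin runs.

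**Figure D2:**
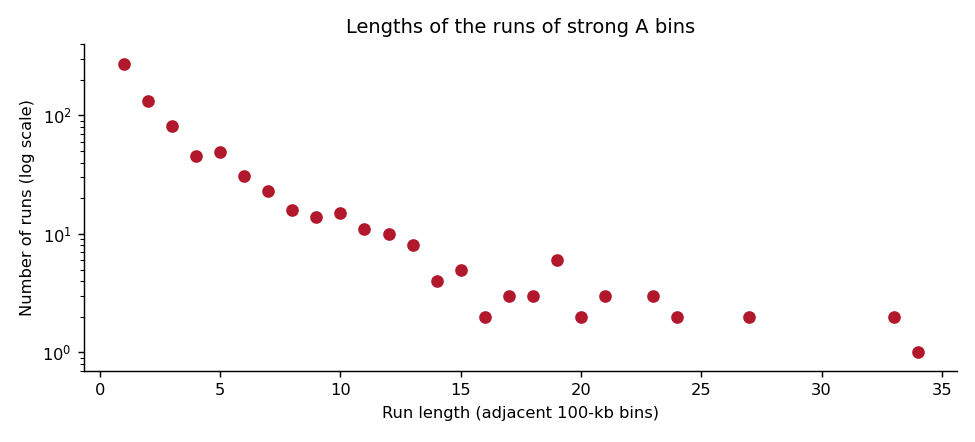
Number of runs of adjacent strong A bins (log scale) at each run length in 100-kb bins. The 272 single-bin runs are the most frequent, and 15 runs reach 20 bins or more.

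Nearly all runs were set inside the A compartment. Of 1489 scored bins that flank a run, 1444 (97.0%) were above 0 in all 8 libraries and 8 were below 0 in all 8, and their median mean score was 0.0309. For single-bin runs the figure was 529 of 544 flanks (97.2%). The median strong A bin lay 10 bins from the nearest bin that was below 0 in any library, and 44 strong A bins (1.44%) lay next to one.

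The longest run, chr2:29600001-33000000, held 34 bins and 92 protein-coding genes from Rapgef1 to Garnl3. Its mean score was 0.0361 and 0.0348 in Setdb1 WT without and with UNC0642, 0.0358 and 0.0361 in Setdb1 KO, 0.0386 and 0.0378 in Suv39h WT, and 0.0374 and 0.0363 in Suv39h DKO. The Suv39h libraries were all above the Setdb1 libraries here, narrowly so, with 0.0363 in Suv39h DKO + UNC and 0.0361 in Setdb1 WT. Such a separation was not counted over all runs, and the lines overlapped in the chr17 and chr10 runs named below. A run of 33 bins at chr19:3400001-6700000 (147 genes from Tesmin to Slc22a12) had a mean of 0.0533 over the libraries, and the order of the lines was reversed there: 0.0534 to 0.0558 in the Setdb1 libraries and 0.0512 to 0.0525 in the Suv39h libraries. The next were 33 bins at chr17:26400001-29700000 (74 genes from Neurl1b to Ccdc167, mean 0.0479), 27 bins at chr17:45400001-48100000 (73 genes from Cdc5l to 1700067P10Rik, mean 0.0604) and 27 bins at chr10:60700001-63400000 (45 genes from Slc29a3 to Dnajc12, mean 0.0538).

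The 5 highest bins all lay on chromosome 19, the shortest autosome, where the scale gives the largest single scores. The first, chr19:41800001-41900000, holds Arhgap19, the Wnt pathway genes Frat1 and Frat2, and Rrp12, which acts in ribosome assembly. It scored 0.0739 and 0.0776 in Setdb1 WT without and with UNC0642, 0.0740 and 0.0773 in Setdb1 KO, 0.0777 and 0.0784 in Suv39h WT, and 0.0812 and 0.0761 in Suv39h DKO. The adjacent chr19:41900001-42000000, with Pgam1, the exosome gene Exosc1, Zdhhc16, Mms19 and Ubtd1, had nearly the same mean, 0.0770. The others were chr19:42100001-42200000 with Pi4k2a, Avpi1, Marveld1, Zfyve27 and Sfrp5 (0.0743), chr19:47100001-47200000 with Pdcd11, Calhm1, Calhm2, Calhm3 and Neurl1a (0.0742), and chr19:42000001-42100000 with 6 genes from Ubtd1 to Pi4k2a (0.0728).

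The minimum of 0.03 cut through a continuous range. The lowest library was within 0.01 of the minimum in 1754 strong A bins (57.3%). The 5 bins just inside, led by the Grb2 bin at chr11:115700001-115800000 with 0.030001 in Suv39h WT and 0.0403 in Suv39h DKO + UNC, had mean scores of 0.0325 to 0.0359. The 5 just outside, led by the Nlrc5 bin at chr8:94400001-94500000 with 0.029998 in Suv39h DKO + UNC and 0.0384 in Setdb1 WT + UNC, had means of 0.0332 to 0.0355. The ranges on the 2 sides of the minimum overlap. In addition, 498 bins missed the rule in 1 library alone, from 19 that missed it in Setdb1 KO to 106 in Suv39h DKO + UNC.

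Genes of basic cell functions started in strong A bins more often than the 35.7% of all protein-coding genes. These shares describe the lists and were not tested, since neighbouring genes share bins. The share was 49 of 78 (62.8%) for cytosolic ribosomal proteins, 42 of 78 (53.8%) for mitochondrial ribosomal proteins, 25 of 48 (52.1%) for proteasome subunits, 9 of 12 (75%) for RNA polymerase II subunits, 31 of 52 (59.6%) for genes named as translation initiation factors, which include the eIF4E-binding proteins, and 20 of 35 (57.1%) for complex I subunits of the respiratory chain. Strong A members of the cytosolic ribosomal list include the ribosomal protein-like genes Rpl3l, Rpl7l1 and Rps27l. Rps27 had the highest bin mean of the cytosolic ribosomal list, 0.0706, and Rpl7a the lowest of those in strong A, 0.0324. Polr2a, the largest subunit of RNA polymerase II, lay in a bin with 0.0489 and 0.0484 in Setdb1 WT without and with UNC0642, 0.0475 and 0.0494 in Setdb1 KO, 0.0521 and 0.0491 in Suv39h WT, and 0.0494 and 0.05 in Suv39h DKO. All 8 of its values lay within 0.005 of each other. On the equal chromosome scale the share of all protein-coding genes was 38.2%.

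Gene families that lie in tandem arrays differed widely. Of 1128 olfactory receptor genes, 10 (0.887%) started in strong A bins, in 7 bins that include Olfr1415 and Olfr1416 on chromosome 1 and Olfr90 and Olfr91 on chromosome 17. None of 316 vomeronasal receptor genes did. Among 64 defensin genes, Defb30, Defb42 and Defb43 shared 1 strong A bin. Of 113 genes with keratin names, 4 were in strong A: Krt8 and Krt18, the keratin pair of simple epithelia, and Krtcap2 and Krtdap, which are not keratins. Zinc finger genes named Zfp were near the background, at 114 of 380 (30.0%). Of 67 replication-dependent histone genes, 12 (17.9%) lay in strong A. These were 10 Hist2 genes in the bin chr3:96200001-96300000 (mean 0.0462) and the Hist3 genes Hist3h2ba and Hist3h2a on chromosome 11. The other 55 were in other A bins.

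Among developmental genes, the Hox share was near the background, and those of lineage and imprinted genes were lower. Of 39 Hox genes, the homeobox genes that pattern the body axis, 12 lay in strong A bins (30.8%), and all the others in other A bins. The Hoxa cluster was wholly strong A, over the bins chr6:52100001-52200000 (mean 0.0434) and chr6:52200001-52300000 (0.0403), and Hoxc4 (0.0345) was the only other member. Among 24 scored lineage regulators, the 4 in strong A were Sox10 (0.0502), Mesp1 (0.0501), Gata4 (0.0463) and Nkx2-5 (0.0421), which act in neural crest, mesoderm and heart development. A further 15 were in other A bins, Pax6 lay in a bin whose sign differed between libraries, and 4 were below 0 in all 8. Of 31 imprinted genes, Phlda2 (0.0336) and Impact (0.0471) were in strong A (6.45%), 20 in other A bins and 6 below 0 in all 8. None of 21 two-cell-stage genes was in strong A, and 13 were below 0 in all 8. Of 20 germline genes, 6 (30.0%) were: Piwil2 (0.0562), Tdrkh, Dmc1, Hormad1, Tuba3a and Stk31. Long genes were rare, with 5 of 218 genes of at least 500 kb (2.29%) starting in strong A: Ank3, Smyd3, Rad51b, Atrnl1 and the gene model Gm20388.

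**Figure D3:**
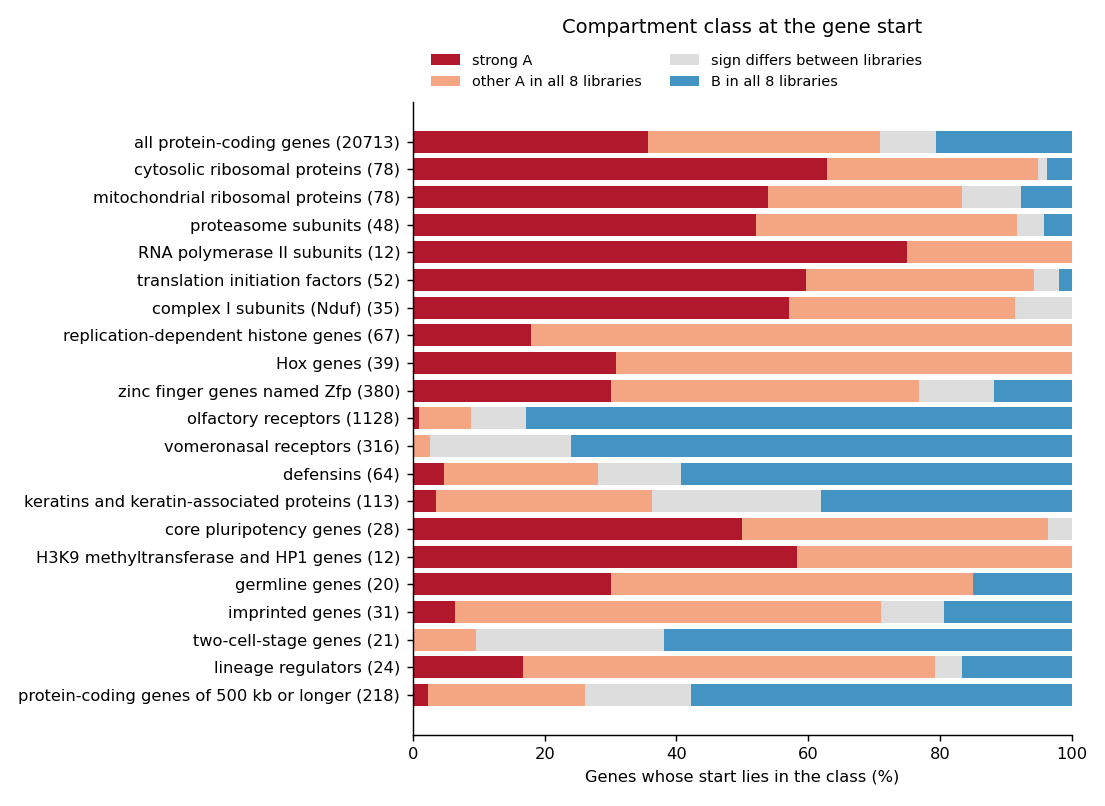
Percent of the genes on each list whose start lies in strong A bins, in other bins above 0 in all 8 libraries, in bins whose sign differs between libraries, and in bins below 0 in all 8 (number of scored genes in parentheses). RNA polymerase II subunits (75%) and cytosolic ribosomal proteins (62.8%) have the largest strong A shares, and vomeronasal receptors and two-cell-stage genes have none.

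Among 28 core pluripotency genes, which maintain the stem cell state, 14 started in strong A bins (50%), 13 in other A bins and 1, Dppa4, in a bin whose sign differed between libraries. The bin of Pou5f1, which encodes OCT4, was the highest. It scored 0.0638 and 0.0646 in Setdb1 WT without and with UNC0642, 0.0638 and 0.0631 in Setdb1 KO, 0.0658 and 0.0629 in Suv39h WT, and 0.0660 and 0.0608 in Suv39h DKO. The bin of Sox2, the partner of OCT4 on DNA, scored 0.0427, 0.0405, 0.0432, 0.0425, 0.0448, 0.0447, 0.0358 and 0.0425 in the same order, with Suv39h DKO the lowest library. Dnmt3l (0.0541), a cofactor of DNA methylation, Klf2 (0.0526), Tdgf1 (0.0429), Esrrb (0.0417), Zfp281 (0.0415), Tfcp2l1 (0.0405), Lefty1, Dppa5a, Fgf4, Stat3, Sall4 and Lin28a made up the rest. Nanog (mean 0.0334) missed the rule in Suv39h DKO alone (0.0288), while Klf4 (0.0125) and Zfp42 (0.0104) lay far lower in A.

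Of 12 genes for H3K9 methyltransferases, their partners and HP1 proteins, 7 started in strong A bins (58.3%) and the other 5 in other A bins. Ehmt2, which encodes G9a, the target of UNC0642, had the highest bin, with 0.0566 and 0.0617 in Setdb1 WT without and with UNC0642, 0.0575 and 0.0553 in Setdb1 KO, 0.0555 and 0.0589 in Suv39h WT, and 0.0607 and 0.0553 in Suv39h DKO. The inhibitor libraries were higher than their controls in the WT backgrounds and lower in the knockouts. The Setdb1 gene itself had 0.0485, 0.0439, 0.0422, 0.0467, 0.0480, 0.0547, 0.0497 and 0.0532 in the same order, so its bin was lower in Setdb1 KO than in Setdb1 WT without the inhibitor and higher with it. Wiz (0.0516), a zinc finger partner of G9a and GLP, Cbx5 (0.0450), Cbx3 (0.0440) and Cbx1 (0.0375), which encode the HP1 proteins that bind methylated H3K9, and Atf7ip (0.0348), a partner of SETDB1, were the others. Ehmt1, which encodes GLP, missed the rule in Suv39h DKO (0.0287), and Suv39h2 lay low in A (0.00995).

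**Figure D4:**
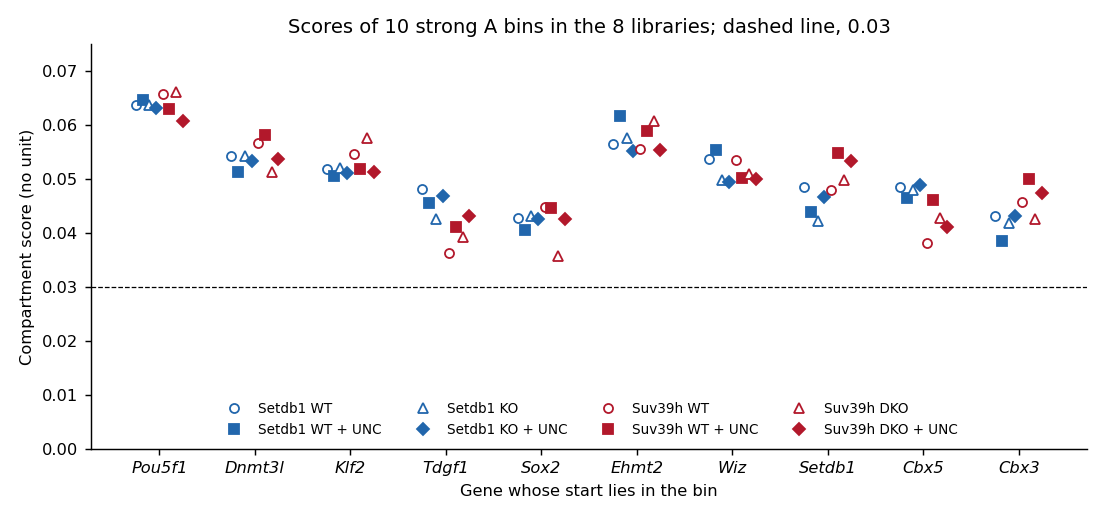
Compartment score in each of the 8 libraries for the bins of the 5 pluripotency genes and the 5 H3K9 methylation genes with the highest mean among the strong A members of each list. Blue marks Setdb1 and red Suv39h libraries, filled symbols have UNC0642, and the dashed line is the minimum of 0.03. Pou5f1 stays between 0.0608 and 0.0660, and Sox2 is lowest in Suv39h DKO at 0.0358.

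The level of the strong A bins differed little between libraries. Their mean score was 0.0457 and 0.0454 in Setdb1 WT without and with UNC0642, 0.0450 and 0.0452 in Setdb1 KO, 0.0454 and 0.0453 in Suv39h WT, and 0.0448 and 0.0440 in Suv39h DKO. Suv39h DKO + UNC was the lowest, and it was the lowest library in 608 strong A bins (19.9%) and the highest in 192 (6.28%). That library also had the smallest SD over all bins, 0.0270 against 0.0272 to 0.0274 in the others. When the 8 libraries were given one common distribution by quantile normalization, its member mean of 0.0452 was the highest of the 8. Divided by the SD of its own library over all bins, its member mean was still the lowest, 1.63 against 1.64 to 1.67.

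Differences between single libraries were counted when a score was higher or lower by at least 0.01, next to the same share of all 23972 bins. Because strong A bins cannot fall below 0.03, the rule itself limits how far their scores can differ. Each contrast within a line was therefore also read in bins chosen only on the 4 libraries of the other line: 3354 bins chosen on the Suv39h libraries for the Setdb1 contrasts and 3723 bins chosen on the Setdb1 libraries for the Suv39h contrasts. A contrast between 2 single libraries has no replicate check and no test. Exact 95% binomial intervals are given for the lowest and the highest share only, and they cover the counting of bins, which are not independent.

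With UNC0642, a smaller share of the strong A bins than of all bins differed by at least 0.01 in each of the 4 backgrounds. In Setdb1 WT, 130 strong A bins (4.25%) differed by at least 0.01, against 8.13% of all bins. Of these, 61 were higher and 69 lower with the inhibitor, against 3.51% and 4.62% of all bins. In Setdb1 KO, 28 did (0.915%, interval 0.609 to 1.32%), against 1.69% of all bins, with 16 higher (0.755% of all bins) and 12 lower (0.934% of all bins). The 2 Setdb1 KO libraries also differ in 4-OHT, given for 5 days without UNC0642 and for 2 days ahead of it, so inhibitor and 4-OHT exposure cannot be told apart in this contrast. In Suv39h WT there were 85 (2.78%, against 4.79%), 42 higher (2.26% of all bins) and 43 lower (2.53% of all bins). In Suv39h DKO there were 139 (4.54%, against 6.73%), 46 higher (3.04% of all bins) and 93 lower (3.69% of all bins). In the bins chosen on the other line the shares were 5.69%, 1.55%, 3.55% and 5.69% in the same order, each still below the share of all bins. The split there was 106 higher and 85 lower for Setdb1 WT, 17 higher and 35 lower for Setdb1 KO, 78 higher and 54 lower for Suv39h WT, and 86 higher and 126 lower for Suv39h DKO, so the balance depended on how the bins were chosen in all but Suv39h DKO. The UNC0642 contrasts within a line share their libraries with the knockout contrasts of that line.

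The median difference with UNC0642 was near 0 in strong A bins: -0.000251 in Setdb1 WT, 0.000256 in Setdb1 KO, -5.64e-05 in Suv39h WT and -0.000718 in Suv39h DKO. In other A bins it was 0.000467, -0.000442, 0.000313 and 0.000176. The strong A median was below 0 on 13, 6, 12 and 15 of the 19 autosomes. The signs in Setdb1 KO, Suv39h WT and Suv39h DKO turned under quantile normalization (-6.27e-05, 7.85e-05 and 6.14e-05), so no direction can be given for those. The median in Setdb1 WT stayed below 0 but shrank, to -4.08e-05 in bins chosen on the other line and -9.46e-05 under quantile normalization.

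The 4 inhibitor pairs were then read together, although the Setdb1 KO pair also differs in the days of 4-OHT. With UNC0642, 154 (5.03%) were higher in all 4 pairs, against 6.79% of all bins, and 190 (6.21%) lower in all 4, against 5.94% of all bins. None differed by at least 0.01 in all 4 pairs in either direction (0.00417% and 0% of all bins). Across all bins, limma with the background as a block called 0 bins for UNC0642 at an adjusted p under 0.05 (0% of all bins, lowest adjusted p of a strong A bin 0.957). At an unadjusted p under 0.05 it had 76 strong A bins (2.48%), 28 higher and 48 lower, against 4.95% of all bins. Quantile normalization gave 71 (2.32%, against 5.01% of all bins), 34 higher and 37 lower. Without the Setdb1 KO background, whose libraries differ in 4-OHT, there were 96 (3.14%, against 6.57% of all bins), 26 higher and 70 lower. Without the Suv39h DKO background there were 52 (1.7%, against 3.94%), 26 higher and 26 lower. The count was 119 (3.89%, against 5.57% of all bins) without the Setdb1 WT background and 38 (1.24%, against 1.99%) with no block.

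Only strong A bins that differed the same way in all 4 pairs are ranked here. The one with the largest negative mean difference, chr3:116500001-116600000, holds Rtca, Dbt, Lrrc39, Trmt13 and Sass6. Dbt encodes a subunit of the branched-chain keto acid dehydrogenase and Sass6 a centriole protein. The bin scored 0.0486 in Setdb1 WT and 0.0412 with UNC0642, and 0.0401 in Setdb1 KO and 0.0387 with it. In Suv39h WT it scored 0.0489 and 0.0320 with UNC0642, and in Suv39h DKO 0.0482 and 0.0344 with it. The mean difference was -0.00989 (limma adjusted p = 0.957), and the Suv39h pairs were the larger ones. The next were chr9:59500001-59600000 (-0.00880), which holds Hexa, a lysosomal hexosaminidase, with Tmem202 and Celf6, and chr9:57300001-57400000 with Ppcdc (-0.00737). The largest positive mean difference was 0.00636 at chr16:30100001-30200000, which holds no protein-coding gene and lies in a run of 21 bins. The next were chr3:122000001-122100000 with Arhgap29 and Abca4 (0.00631), a bin just inside the minimum, and chr18:77600001-77700000 with 8030462N17Rik (0.00604). None of the 6 passed the test.

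With SETDB1 loss in the absence of the inhibitor, the strong A bins had a small negative shift. The median strong A bin was different by -0.000720 score units in Setdb1 KO and the mean score went from 0.0457 to 0.0450, a difference of -1.55%. The median was below 0 on all 19 autosomes, from -0.00137 on chromosome 10 to -0.000140 on chromosome 2, while it was 0.000424 in other A bins and -0.000122 in all bins. In the 3354 bins chosen on the Suv39h libraries it was -0.000659, again below 0 on all 19 autosomes. It stayed below 0 with 2 other centrings of the scores, with quantile normalization (-0.000167) and on the equal chromosome scale. Of the strong A bins, 59.5% were lower in Setdb1 KO, against 51.4% of all bins. This is 1 pair of libraries, and the shift was not tested.

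Larger differences were rare in that contrast. Only 31 strong A bins (1.01%) differed by at least 0.01, against 2.28% of all bins, with 10 higher (1.4% of all bins) and 21 lower (0.88% of all bins). With UNC0642 in both arms, 202 did (6.60%, against 12.9%), 90 higher (7.16% of all bins) and 112 lower (5.79% of all bins), and the median was -0.000200, below 0 on 11 of 19 autosomes. In bins chosen on the Suv39h libraries the shares were 1.46%, with 23 higher and 26 lower, and 9.004%, with 111 higher and 191 lower. Setdb1 WT + UNC enters the second pair, and its part in the larger share was not tested. The 2 pairs also differ in the days of 4-OHT.

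Over both SETDB1 pairs, 534 strong A bins (17.5%) were higher in both, against 25.03% of all bins, and 877 (28.7%) lower in both, against 29.4%. None differed by at least 0.01 in both pairs upward (0.567% of all bins) or downward (0.129% of all bins). limma called 0 bins (0% of all bins, lowest adjusted p of a strong A bin 0.336), and 107 strong A bins (3.5%) had an unadjusted p under 0.05, 33 higher and 74 lower, against 9.1% of all bins. After quantile normalization there were 123 (4.02%, against 9.26% of all bins), 52 higher and 71 lower.

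The ranking for SETDB1 loss covers only strong A bins that differed the same way in both pairs. The largest positive mean difference was 0.0154 at chr18:21000001-21100000, which holds Rnf138, a ubiquitin ligase, and Mep1b, a metalloprotease. The bin scored 0.0499 and 0.0304 in the Setdb1 WT libraries without and with UNC0642, and 0.0569 and 0.0543 in the Setdb1 KO libraries. Setdb1 WT + UNC stood far below the other 3, and the pair without it differed by 0.00699. The same library was the lowest of the 4 at chr18:74200001-74300000 with Ska1, Cxxc1, Mbd1 and Cfap53 (0.0135) and at chr19:38300001-38400000 with Lgi1 and Slc35g1 (0.0105). It was the highest of the 4 at the bins with the largest negative differences, chr3:84400001-84500000 with Fhdc1, Arfip1 and Gm37240 (-0.0119), chr13:73500001-73600000 with Lpcat1 and Slc6a3 (-0.0117) and chr19:29000001-29100000 with Cdc37l1 and Ak3 (-0.0111). At the Lpcat1 bin the pair without UNC0642 differed by only -0.00232. Adjusted p in limma was 0.336 to 0.433 for these 6.

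In the Suv39h clones the median strong A bin scored lower in the DKO on the deposited scale. Without UNC0642 the median difference was -0.000522, below 0 on 15 of 19 autosomes, and with UNC0642 it was -0.00129, below 0 on all 19. The difference in mean score with the inhibitor was -2.98%. In the 3723 bins chosen on the Setdb1 libraries the medians were -0.000499 and -0.00109. Both signs turned under quantile normalization, to 0.000195 and 0.000185, although the equal chromosome scale left them at -0.000531 and -0.00126. A different centring turned each of them too, to 6.48e-05 without UNC0642 and 6.91e-05 with it, so no direction can be given. Suv39h DKO + UNC, the library with the smallest spread, is an arm of the second contrast.

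Without UNC0642, 130 strong A bins (4.25%) differed by at least 0.01 between Suv39h DKO and Suv39h WT, against 7.38% of all bins, with 42 higher (3.64% of all bins) and 88 lower (3.73% of all bins). With UNC0642 there were again 130 (4.25%, against 6.84%), but 20 were higher (2.98% of all bins) and 110 lower (3.86% of all bins). In bins chosen on the Setdb1 libraries the shares were 5.67%, with 73 higher and 138 lower, and 5.21%, with 34 higher and 160 lower. Between the Suv39h WT and Setdb1 WT lines, both untreated, 223 strong A bins (7.29%, interval 6.39 to 8.27%) differed by at least 0.01, against 12% of all bins, 91 higher in Suv39h WT (5.68% of all bins) and 132 lower (6.27% of all bins). The next largest share, 6.60% for SETDB1 loss with UNC0642, was the larger of the 2 under quantile normalization (7.32% against 6.28%) and for differences of at least 0.02 (0.229% against 0.131%), so no order can be given. The rule uses both libraries of the contrast between the lines, and no bins chosen on other libraries were read for it.

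Over both SUV39H pairs, 608 strong A bins (19.9%) were higher in both, against 28.6% of all bins, and 1105 (36.1%) lower in both, against 27.4%. By at least 0.01 in both pairs, 1 bin was higher (0.35% of all bins) and 8 were lower (0.262%, against 0.509%). limma called 0 bins (0% of all bins, lowest adjusted p of a strong A bin 0.356). At an unadjusted p under 0.05 there were 212 strong A bins (6.93%), 44 higher and 168 lower, against 9.6% of all bins. After quantile normalization there were 172 (5.62%, against 9.02% of all bins), 80 higher and 92 lower.

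The largest negative mean difference was -0.0164 at chr14:66900001-67000000, which holds Bnip3l, a mitophagy receptor, and Pnma2. It scored 0.0547 and 0.0580 in the Suv39h WT libraries without and with UNC0642, and 0.0424 and 0.0376 in the Suv39h DKO libraries. A lower DKO score in each pair follows from how the bin was chosen. The 4 Setdb1 libraries lay between 0.0383 and 0.0469. Cpeb3, a regulator of translation, lies in the next, chr19:37100001-37200000 (-0.0159), where the DKO libraries had 0.0344 and 0.0387 and the WT libraries 0.0508 and 0.0541. The third, chr13:64100001-64200000, with Slc35d2, Zfp367, Habp4 and Cdc14b, had a mean difference of -0.0135. Bahcc1, at chr11:120200001-120300000, was in the 1 bin higher by at least 0.01 in both pairs, with 0.0322 and 0.0343 in the WT libraries and 0.0448 and 0.0456 in the DKO libraries. The largest positive mean difference was 0.0120 at chr13:69600001-69700000, with the RNA methyltransferase gene Nsun2 and Srd5a1, and the third was 0.00963 at chr11:115300001-115400000, with 5 genes from Otop2 to Cdr2l. Adjusted p in limma was 0.356 to 0.394 for these 6.

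**Figure D5:**
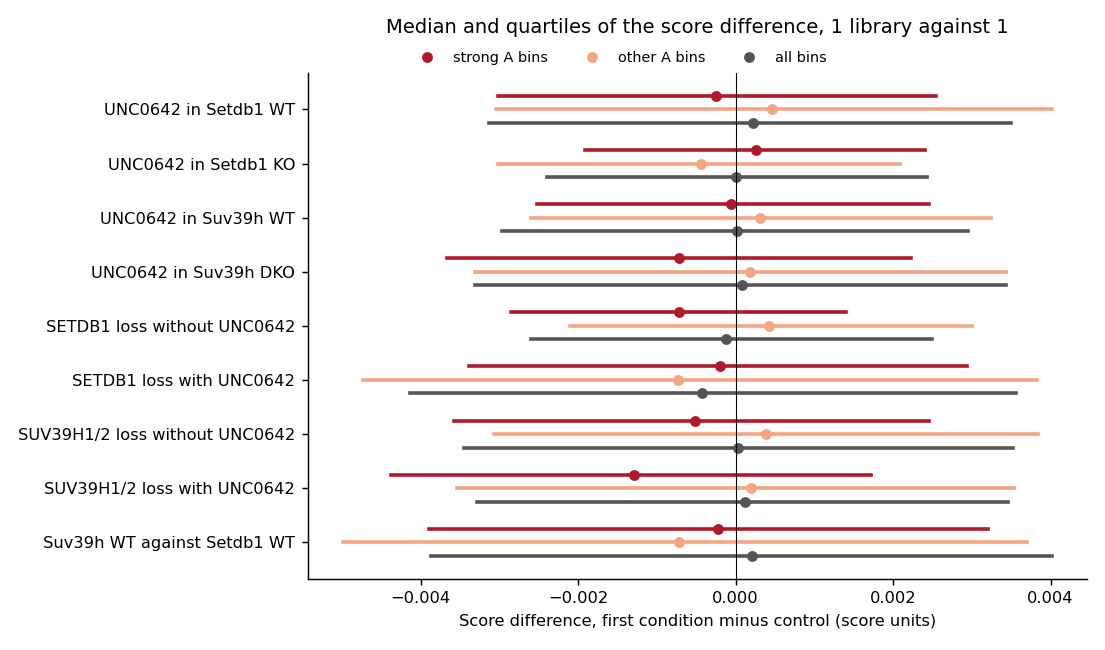
Median (points) and quartiles (lines) of the score difference over strong A bins, other A bins and all bins in 9 contrasts of 1 library against 1. The strong A medians lie between -0.00129, for SUV39H1/2 loss with UNC0642, and 0.000256, for UNC0642 in Setdb1 KO, and no quartile reaches 0.01.

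Differences of at least 0.01 in the bins of 5 gene lists are given next to the shares of all strong A bins and of all bins. Over the 8 contrasts within a line these shares ran from 0.915% to 6.60% of strong A bins and from 1.69% to 12.9% of all bins. The 47 strong A bins with cytosolic ribosomal protein genes had median differences between -0.00123 and 0.00112 over these contrasts, with 0 to 2 bins that differed by at least 0.01. Of the 31 bins with translation initiation factor genes, 1 was higher and 3 lower by at least 0.01 with SUV39H1/2 loss without UNC0642, where 4.25% of strong A bins and 7.38% of all bins differed. With UNC0642 added to both arms 1 was higher and 2 lower, and the other 6 contrasts within a line had 0 or 1 each. Among the 14 pluripotency bins, 2 differences reached 0.01 within a line. The Tfcp2l1 bin scored 0.0321 in Suv39h WT and 0.0439 in Suv39h WT + UNC, and the Lin28a bin 0.0421 in Suv39h WT and 0.0317 in Suv39h DKO. The 7 bins with H3K9 methyltransferase and HP1 genes had 0 differences of that size within a line, which with so few bins is near the share of strong A bins. Of the 89 strong A bins with Zfp genes, 4 were higher and 2 lower by at least 0.01 with SUV39H1/2 loss without UNC0642, and 0 were higher and 7 lower with it (0.654% and 3.60% of strong A bins, 2.98% and 3.86% of all bins). The other 6 contrasts within a line had 1 to 4 each. These counts were not tested, and the other lists are not described here.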

How the data were processed

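Compartment scores of 8 Hi-C libraries were made and deposited by the authors. Per the study's methods, chromatin was cut with DpnII, reads were aligned to mm10 with the 4DN Hi-C pipeline (v43), alignments with a mapping quality above 10 were kept, and Juicer Tools was used to compute, per autosome and in 100-kb bins, the leading eigenvector of the KR-normalised contacts. The Hi-C was repeated per the study's methods, and which repeat or pool each file holds is not given in the sources used here. All values used are these deposited scores, which have no unit. Mean scores on each autosome are 0, so a shift of a whole chromosome cannot appear. The score files carry no counts and the read totals given in the study were not used here, so no counting floor is given.

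Bins scored in all 8 libraries were used, and 33 bins missing from at least 1 library were left out. Genes were taken from GENCODE vM21, base composition from GRCm38.p6 and promoters from RefSeq, all on the build of the files. A gene counted in every bin it overlapped, or once by its start where starts are named, and gene models that span several genes count in each bin they cross. The member bins and gene lists were chosen with earlier results of these data known. Named regions were the 5 longest runs, the 5 highest bins, the 5 bins on each side of the minimum, and the 3 bins with the largest mean difference in each direction for each factor among those that differed the same way in every pair. Named genes overlap those regions or belong to the lists and start in a strong A bin. Other list genes were named after their values were seen.

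Scores of all bins were fitted with limma 3.58.1 in R 4.3.3 (lmFit, eBayes, Benjamini-Hochberg over all bins): UNC0642 with the 4 backgrounds as blocks, and each knockout as the mean of 2 libraries against 2. The fit was also run on simulated data, and the outcome is not given here. What size of difference the fit could find between these libraries was not tested. The p-values measure only the spread between these libraries, which may be technical. Contrasts of 1 library with 1 have no test. Alternatives were other minimums, other difference sizes, bins chosen on the other line, equal chromosome scale, other centring, quantile normalization, no block and libraries left out.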

Additional observations from a re-analysis of the deposited data

Results flagged for a closer look

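The median difference of strong A bins with UNC0642 was 0.000256 in Setdb1 KO and -0.000251 in Setdb1 WT, opposite in sign with 1 pair of libraries each. The difference between the 2 was not tested, and the sign in Setdb1 KO turned under quantile normalization (-6.27e-05). In bins chosen on the other line the Setdb1 WT median was -4.08e-05, and the Setdb1 KO libraries also differ in the days of 4-OHT.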

How the results depend on the processing

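The number of strong A bins was 4189 at a minimum of 0.025 and 2029 at 0.035. With each library left out of the rule in turn it was 3078 to 3165, and it was 3723 on the Setdb1 libraries alone and 3354 on the Suv39h libraries alone. A protein-coding gene start, in place of an overlap, lay in 85.7% of strong A bins. limma called 0 strong A bins for each factor under every setting run, including the 4 fits of UNC0642 that each left out 1 background. The lowest adjusted p of a strong A bin ranged from 0.508 to 1 for UNC0642, from 0.316 to 0.501 for SETDB1 loss and from 0.31 to 0.356 for SUV39H1/2 loss. The labels carry no replicate numbers, so the pairing was by background: the background was the block for UNC0642, and without that block 0 strong A bins were called.

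The contrasts are given in the order UNC0642 in Setdb1 WT, Setdb1 KO, Suv39h WT and Suv39h DKO, SETDB1 loss without and with UNC0642, SUV39H1/2 loss without and with UNC0642, and Suv39h WT against Setdb1 WT. The share of strong A bins that differed was 25.7%, 16.0%, 21.3%, 26.8%, 15.4%, 31.0%, 27.6%, 28.7% and 34.2% at 0.005, and 0.0654%, 0%, 0.0327%, 0%, 0%, 0.229%, 0.0981%, 0.0654% and 0.131% at 0.02. In bins chosen on the other line the first 8 shares were 5.69%, 1.55%, 3.55%, 5.69%, 1.46%, 9.004%, 5.67% and 5.21%. On the equal chromosome scale the share moved to 3.45% for UNC0642 in Setdb1 WT, to 0.640% and 5.21% for SETDB1 loss without and with UNC0642, and to 5.86% between the lines. Under quantile normalization it moved to 2.22% and 3.73% for UNC0642 in Suv39h WT and Suv39h DKO, to 3.14% and 3.17% for SUV39H1/2 loss without and with UNC0642, and to 6.28% between the lines, below the 7.32% of SETDB1 loss with UNC0642.

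The medians moved with the centring, and 5 of the 9 turned sign under at least 1 alternative. The smallest, for UNC0642 in Suv39h WT, was 6.83e-05 in bins chosen on the other line, 4.08e-05 with the mean below subtracted once more and 7.85e-05 under quantile normalization. In bins chosen on the other line the median moved to -4.08e-05 for UNC0642 in Setdb1 WT and to -0.000450 in Suv39h DKO. If the eigenvectors had unit length before a mean was subtracted, that mean can be computed and added back. This gave -0.000459 for UNC0642 in Setdb1 WT, 0.000544 in Setdb1 KO and 0.00115 in Suv39h DKO, -0.000978 for SETDB1 loss without UNC0642, and -0.00106 and 6.91e-05 for SUV39H1/2 loss without and with UNC0642. The other alternatives for the medians were chosen after seeing the data. Subtracting that mean once more gave -4.76e-05, -1.09e-05 and -0.00246 for UNC0642 in Setdb1 WT, Setdb1 KO and Suv39h DKO, -0.000494 and -0.000444 for SETDB1 loss without and with UNC0642, and 6.48e-05 and -0.00258 for SUV39H1/2 loss. Quantile normalization gave -6.27e-05 and 6.14e-05 for UNC0642 in Setdb1 KO and Suv39h DKO, -0.000167 for SETDB1 loss without UNC0642, and 0.000195 and 0.000185 for SUV39H1/2 loss. The equal chromosome scale with the same bins turned no median. The cause of these moves was not tested.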

Other observations

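The strong A bins with the most protein-coding genes, chosen after their values were seen, were chr18:37800001-37900000 with 25 genes and chr18:37700001-37800000 with 21, in the protocadherin gamma cluster, whose variable first exons are annotated as separate genes. Their mean scores were 0.0636 and 0.0575. The next, chr2:25200001-25300000, held 18 genes from Nelfb to Grin1 at 0.0381. At the other extreme, the longest stretch of strong A bins with no protein-coding gene was 4 bins at chr13:97300001-97700000, with a mean of 0.0382, and a pair of such bins at chr18:82700001-82900000 had a mean of 0.0647.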
